A study of Mus musculus with 9 samples.

Results

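The 6 genes described here encode the machinery that turns prohormones into active peptides: the convertases Pcsk1 and Pcsk2, their partner proteins Pcsk1n and Scg5, the carboxypeptidase Cpe and the amidating enzyme Pam. They were chosen by gene symbol, and each was found once among the 23231 symbols kept. All 6 passed the filter on low values and stand among the 13306 genes tested. The 9 libraries were made from whole pancreas of mouse embryos at stage e15.5, with 3 libraries from Blinc1-/- embryos (KO), 3 from Blinc1+/- embryos (Het) and 3 from Blinc1+/+ embryos (WT). Blinc1 is a long noncoding RNA gene next to Nkx2-2, which encodes a transcription factor of islet cells. The strain background was mixed (c57bl/6 and 129sv) in all groups, and no library carried a further allele or treatment according to the labels. The labels do not say how the allele was made, or whether a library held 1 embryo, a pool or littermates. The p-values therefore reflect the spread among these samples alone, which may be technical at least in part. By the sex markers given below, Het and WT each held both sexes, so not all their libraries can be repeats of 1 sample.

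Peptide hormones are made as longer precursors, and most of the precursors of islet hormones are cut inside secretory granules. Pcsk1 and Pcsk2 are serine proteases that cut after a pair of basic residues, as in proinsulin and proglucagon. Cpe then trims the basic residues left at the cut end, and Pam converts an exposed glycine into the amide that peptides such as amylin and pancreatic polypeptide carry. Pcsk1n encodes proSAAS, an inhibitor of Pcsk1, and Scg5 encodes a granin-like protein that Pcsk2 needs for its maturation and that can also inhibit it. In the embryonic pancreas these genes mark hormone-producing cells, but Cpe and Pam are known in many other secretory cells, and all 6 are active in neurons.

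The labels could be checked only in part. Depth implied by the deposited confidence bounds was 19532984 to 25437255 fragments per library. Xist was at 35 to 40.3 FPKM (fragments scaled to transcript length and to library depth) in all 3 KO libraries, in Het replicate 3 and in WT replicate 3, and the Y-linked Ddx3y was at 14.8 to 16.2 FPKM in the other 4, so KO holds female embryos alone. Blinc1 is not listed under that name, and the genotype of a library was not checked. Nkx2-2 was at 24.9, 6.08 and 5.48 FPKM in KO replicates 1 to 3, at 6.37, 19 and 13.4 in Het and at 15.2, 21.7 and 25.5 in WT, so the libraries labelled KO replicate 1 and Het replicate 1 stood apart from their groups. Pancreatic identity was plain in every library, with the summed acinar markers at 16075 to 24688 FPKM in KO, 18775 to 21036 in Het and 17064 to 17454 in WT. Of the 12 endocrine lineage markers all were tested and none was at 0 throughout.

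The promoters of the 2 convertases and of Scg5 are shown because the convertases followed each other across libraries while Scg5 varied most. Each line gives the 250 bases before the annotated start, 5' to 3' on the gene's strand, from RefSeq on GRCm38.p6. Capitals mark the cAMP response element TGACGTCA and its half-site TGACG or CGTCA, searched on both strands, so that each full element also counts as overlapping half-sites.
Pcsk1: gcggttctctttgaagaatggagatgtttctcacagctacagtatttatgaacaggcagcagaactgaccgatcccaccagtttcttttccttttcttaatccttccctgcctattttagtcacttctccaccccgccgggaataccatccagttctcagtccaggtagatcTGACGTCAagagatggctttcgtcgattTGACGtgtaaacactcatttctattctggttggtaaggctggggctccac
Pcsk2: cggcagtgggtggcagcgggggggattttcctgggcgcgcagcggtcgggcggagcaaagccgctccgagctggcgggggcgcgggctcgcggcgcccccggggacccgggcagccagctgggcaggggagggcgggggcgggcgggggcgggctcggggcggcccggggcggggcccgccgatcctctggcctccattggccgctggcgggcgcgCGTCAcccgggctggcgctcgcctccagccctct
Scg5: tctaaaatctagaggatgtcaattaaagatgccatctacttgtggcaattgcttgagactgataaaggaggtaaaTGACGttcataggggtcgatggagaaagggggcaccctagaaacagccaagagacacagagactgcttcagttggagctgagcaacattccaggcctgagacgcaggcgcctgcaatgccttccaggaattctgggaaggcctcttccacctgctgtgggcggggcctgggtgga
The Pcsk1 sequence lies at chr13:75089607-75089856 on the plus strand, the Pcsk2 sequence at chr2:143545883-143546132 on the plus strand and the Scg5 sequence at chr2:113829092-113829341 on the minus strand. Pcsk1 held 1 full element, 78 to 71 bases before the start, which 1.55% of 32851 promoters of this length also held. A half-site was found in Pcsk1, Pcsk2 and Scg5 and in 17.77% of all promoters, and none was found in the windows of Pcsk1n and Pam. The Pcsk2 window was 82.4% G and C, against 46.8% for Pcsk1 and 52% for Scg5, with a median of 52.4% over all promoters. RefSeq entries were matched for 5 of the 6 genes, all but Cpe. The 2 convertases thus differ in base composition and in these letters, which says nothing of the factors that bind there.

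Levels of the 6 genes spanned a wide range in FPKM, a unit that is scaled to length and so allows genes to be compared. Over the 9 libraries Cpe averaged 216 ± 14.5 FPKM (SD, n = 9), Pam 38.1 ± 5.09, Pcsk2 24.3 ± 4.71, Scg5 17.1 ± 9.46, Pcsk1 11.3 ± 2.85 and Pcsk1n 8.88 ± 2.90. Cpe was above Pam, and Pam above Pcsk2, in all 9 libraries. Pcsk2 was above Scg5 in 8 libraries, Scg5 above Pcsk1 in 6 and Pcsk1 above Pcsk1n in 7, so the order of these neighbours was not fixed. Among related enzymes, the lysosomal protease gene Ctsl averaged 266 FPKM, Mbtps1 (site-1 protease) 70.4 and Furin, the convertase of the constitutive secretory pathway, 26.6. Cpe was the most even of the 6, with a highest library 1.20 times its lowest. The same ratio was 1.43 for Pam, 1.77 for Pcsk2, 2.11 for Pcsk1, 2.73 for Pcsk1n and 6.18 for Scg5.

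**Figure D1:**
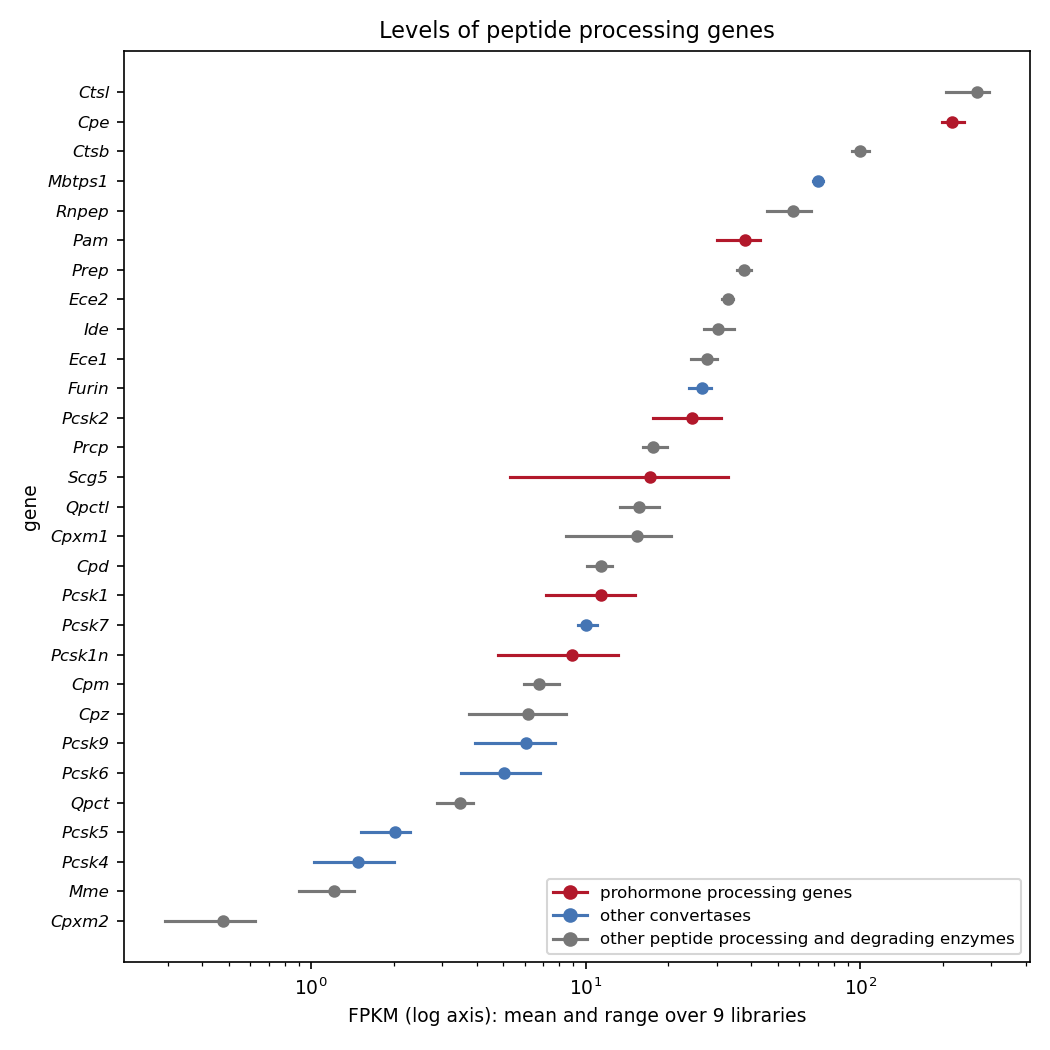
Mean FPKM (points, log axis) and range over the 9 libraries (lines) of the prohormone processing genes, the other convertases and other peptide processing and degrading enzymes. Cpe stood near the top at 216 FPKM, and Scg5 had the widest range of the 6, 5.31 to 32.9 FPKM.

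None of the 6 genes passed the test in any of the 3 genotype comparisons. By limma on log2(FPKM + 1), 0 of 6 were called between KO and WT, where 0% of 13306 genes were called (0 genes), with 1117 genes, or 8.39%, under an unadjusted p of 0.05. The unadjusted count depended on single libraries and on weights, with 2628 genes without KO replicate 1, 603 without KO replicate 3, 399 without KO replicate 2, 717 without WT replicate 1, 416 without WT replicate 2 and 3730 with array weights. With embryo sex as a covariate it was 558 genes. Het against WT likewise gave 0 of 6 on a background of 0%, with 522 genes or 3.92% at the unadjusted level, and KO against Het gave 0 of 6 on a background of 0%, with 296 genes or 2.22%. Those unadjusted counts moved too, to 872 genes without WT replicate 3 and 277 without WT replicate 2 in Het against WT, and to 1189 without KO replicate 1, 557 without Het replicate 2 and 185 without KO replicate 2 in KO against Het. limma's voom on implied fragments also called 0 genes in each comparison. KO and Het were both set against the same WT libraries. Means of log2(FPKM + 1) were lower in KO than in WT for 5 of the 6 genes and for 58.5% of all tested genes. The median log2 difference was -0.29 over the 6 genes and -0.03 over all genes. In Het 5 of 6 such means were lower than in WT, against 57.1% of all genes, with a median of -0.24 over the 6 genes and -0.02 over all genes. On the same scale KO means were below Het means for 3 of the 6, against 55.3% of all genes. The 3 include Scg5, although its mean in FPKM was higher in KO (15.3) than in Het (13.6).

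**Figure D2:**
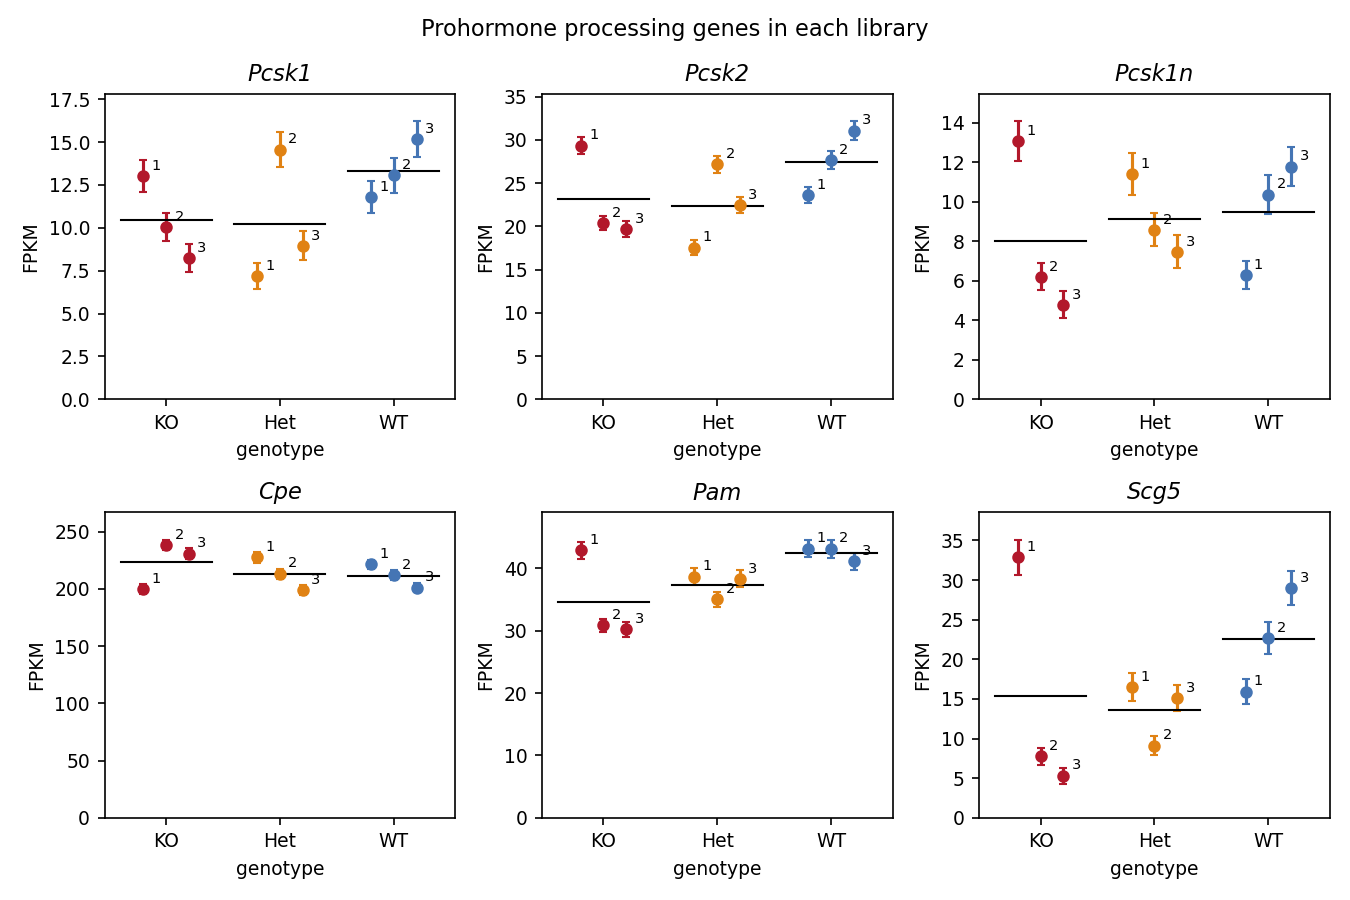
FPKM of each gene in every library by genotype (numbers are replicates, bars the deposited confidence bounds, horizontal lines the group means). KO replicate 1 lay within or above the WT range at 5 of the 6 genes, all but Cpe, while KO replicates 2 and 3 lay below it at 5.

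Pcsk1 (mm9 chromosome 13, 75227435 to 75269946, plus strand), which makes early cuts in proinsulin, was at 13.0, 10.1 and 8.24 FPKM in KO replicates 1 to 3. It was at 7.19, 14.6 and 8.94 FPKM in Het and at 11.8, 13.1 and 15.2 FPKM in WT. Of the KO libraries 2 lay below every WT library and 1 among them, and in Het 2 lay below and 1 among them. Pcsk1 averaged 10.4 ± 2.41 FPKM in KO and 13.3 ± 1.70 in WT (SD, n = 3 each), a log2 difference of -0.34 (SE 0.23, 95% interval -0.85 to 0.17, limma adjusted p = 0.63). Het averaged 10.2 ± 3.84 FPKM, a log2 difference of -0.40 from WT (SE 0.23, interval -0.91 to 0.11, limma adjusted p = 0.94). KO and Het differed by 0.06 on the log2 scale, with an interval of -0.45 to 0.57. Without KO replicate 1 the KO difference from WT was -0.50 and without KO replicate 3 it was -0.20, while the Het difference was -0.20 without Het replicate 1 and -0.66 without Het replicate 2. Each Pcsk1 value rests on 345 to 839 implied fragments.

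Pcsk2 (chromosome 2, 143371869 to 143642018, plus strand), the convertase that releases glucagon from its precursor, was at 29.3, 20.4 and 19.7 FPKM in KO replicates 1 to 3. It was at 17.5, 27.2 and 22.5 FPKM in Het and at 23.6, 27.7 and 31.1 FPKM in WT. The same libraries were low for both convertases: KO replicates 2 and 3 and Het replicates 1 and 3 lay below every WT library at both genes. At Pcsk2, however, the deposited bounds of Het replicate 3 (21.5 to 23.4 FPKM) overlapped those of WT replicate 1 (22.7 to 24.5). KO averaged 23.2 ± 5.38 FPKM and WT 27.5 ± 3.75, a log2 difference of -0.25 (SE 0.18, 95% interval -0.66 to 0.16, limma adjusted p = 0.65). Het averaged 22.4 ± 4.83 FPKM, a log2 difference of -0.29 from WT (SE 0.18, interval -0.71 to 0.12, limma adjusted p = 0.94). For Pcsk2 too the KO difference was -0.43 without KO replicate 1 and -0.15 without KO replicate 3, and the Het difference -0.14 without Het replicate 1 and -0.44 without Het replicate 2. Summed endocrine lineage markers were at 349, 193 and 178 FPKM in KO, 211, 324 and 277 in Het and 268, 340 and 376 in WT, with the 3 lowest sums in KO replicates 2 and 3 and Het replicate 1. Het replicate 3, low for both convertases, had a sum above that of WT replicate 1. Of the 12 markers 11 had lower means in Het than in WT. The exception, Isl1, was at 21.4 FPKM in Het replicate 1, its highest library. The part of endocrine cells in the convertase differences was not tested, and in bulk tissue fewer endocrine cells and less RNA per cell cannot be told apart.

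Scg5 (chromosome 2, 113616470 to 113669248, minus strand), the Pcsk2 partner, had the largest spread. It was at 32.9, 7.77 and 5.31 FPKM in KO replicates 1 to 3, from 878, 210 and 114 implied fragments. It was at 16.5, 9.12 and 15.1 FPKM in Het and at 15.9, 22.7 and 29.0 FPKM in WT. KO replicate 1 was the highest of the 9 libraries and KO replicates 2 and 3 the lowest, so the KO group spanned the whole range. Means were 15.3 ± 15.2 FPKM in KO and 22.5 ± 6.54 in WT, a log2 difference of -0.89 (SE 0.54, 95% interval -2.10 to 0.32, limma adjusted p = 0.60). Without the library labelled KO replicate 1 the difference was -1.62 (limma adjusted p = 0.081), and without KO replicate 3 it was -0.41. Het averaged 13.6 ± 3.91 FPKM, a log2 difference of -0.69 from WT (SE 0.54, limma adjusted p = 0.94), or -0.45 without Het replicate 2.

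Pcsk1n (X chromosome, 7496948 to 7501536, plus strand), the gene of the Pcsk1 inhibitor proSAAS, was at 13.1, 6.20 and 4.78 FPKM in KO replicates 1 to 3. It was at 11.4, 8.58 and 7.46 FPKM in Het and at 6.28, 10.4 and 11.8 FPKM in WT. KO replicate 1 was the highest library and KO replicates 2 and 3 the lowest, as for Scg5, and Het replicate 1 was high here although it had the least Pcsk1. The log2 difference of KO from WT was -0.28 (SE 0.32, 95% interval -1.01 to 0.44, limma adjusted p = 0.76), with -0.66 without the library labelled KO replicate 1 (limma adjusted p = 0.19) and -0.017 without KO replicate 3. Het differed from WT by -0.02 (SE 0.32, interval -0.75 to 0.70). Since the gene is X-linked and KO held females alone, values were also set out by embryo sex. They were 4.78 to 13.1 FPKM in the 5 female libraries and 6.28 to 11.4 in the 4 male libraries, which overlap, and with sex as a covariate the KO difference was -0.32 (SE 0.42).

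Neuronal genes differed between the libraries that the partner genes set apart. The 9 neuron and glia markers, all tested and none at 0 throughout, summed to 258, 87.4 and 94.0 FPKM in KO replicates 1 to 3, 316, 79.4 and 174 in Het and 128, 171 and 111 in WT. Stmn2, a growth cone protein gene, was at 82.5, 22.7 and 23.1 FPKM in KO, 101, 18.3 and 60.9 in Het and 48.9, 65.2 and 37.9 in WT. Tubb3, a tubulin of neurons, was at 68.9, 14.2 and 14.6 FPKM in KO, 88.7, 14.4 and 34.5 in Het and 17.0, 32.8 and 17.9 in WT. The sum was highest in Het replicate 1 and KO replicate 1, which were also the Het and KO libraries with most Scg5 and Pcsk1n, and lowest in Het replicate 2, where Scg5 was lowest of the Het libraries but Pcsk1n was not (8.58 FPKM, against 7.46 in Het replicate 3). WT replicate 3 went the other way, with the lowest sum of the WT libraries and the most Scg5 and Pcsk1n. WT replicate 1 had the least of both genes among the WT libraries, with the middle sum. Ret, a receptor of enteric neurons and their progenitors, was instead at 21.5, 24.4 and 22.5 FPKM in KO, 24.9, 19.9 and 22.4 in Het and 16.5, 16.3 and 20.5 in WT. The part of these cells in the levels of Scg5 and Pcsk1n was not tested.

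**Figure D3:**
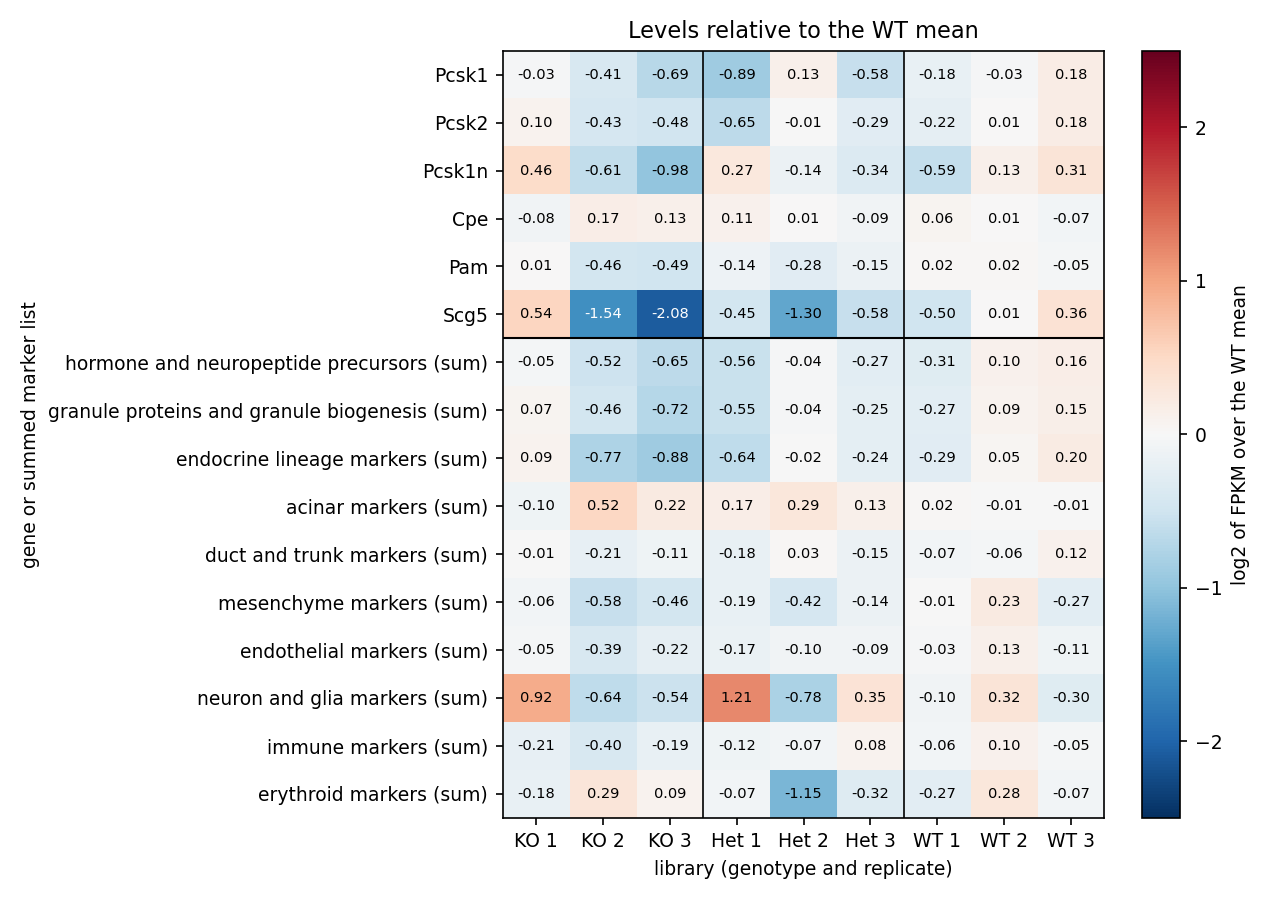
log2 of each library's FPKM over the WT mean for the 6 genes (above the line) and for summed marker lists (below it), with blue for lower and red for higher. Het replicate 1 had the least Pcsk1 and Pcsk2, with the endocrine sum at -0.64 (lower still in KO replicates 2 and 3, at -0.77 and -0.88), the neuron and glia sum at 1.21, Pcsk1n at 0.27 and Scg5 at -0.45.

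Partner and enzyme were also compared within each library, as ratios of FPKM. Scg5 stood at 1.12, 0.38 and 0.27 times Pcsk2 in KO replicates 1 to 3, at 0.94, 0.34 and 0.67 times in Het and at 0.67, 0.82 and 0.93 times in WT. KO replicates 2 and 3 and Het replicate 2 lay well below the WT range, and KO replicate 1 above it. The log2 difference of the ratio was -0.72 in KO against WT (exact permutation test, two-sided p = 0.4, 0.6 adjusted over 6 tests) and -0.43 in Het against WT (exact permutation p = 0.6). Single libraries decided both values: the KO difference was -1.32 without KO replicate 1 and -0.30 without KO replicate 3, and the Het difference was -0.75 without Het replicate 1 and -0.012 without Het replicate 2. The smallest p that 3 libraries against 3 allow is 0.1, so these tests could not pass. Pcsk1n stood at 1.003, 0.62 and 0.58 times Pcsk1 in KO, at 1.58, 0.59 and 0.83 times in Het and at 0.53, 0.79 and 0.78 times in WT, with log2 differences of 0.04 for KO and 0.42 for Het (exact permutation p = 0.9 and 0.4). Here the groups overlapped, with Het replicate 1 alone far above the rest, and the Het difference was 0.025 without that library and 0.74 without Het replicate 2.

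The ratio of the convertases varied least. Pcsk1 stood at 0.44, 0.49 and 0.42 times Pcsk2 in KO, at 0.41, 0.54 and 0.40 times in Het and at 0.50, 0.47 and 0.49 times in WT. The differences from WT were -0.11 in KO and -0.13 in Het on the log2 scale (exact permutation p = 0.3 and 0.4), and the groups overlapped.

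**Figure D4:**
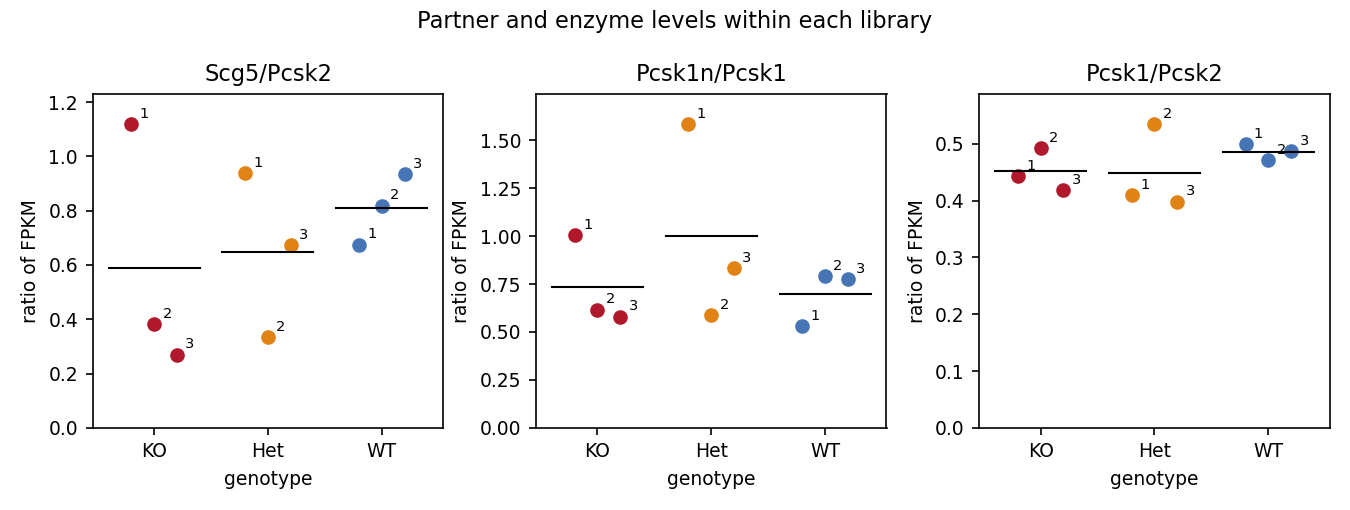
Ratios of FPKM within each library by genotype (numbers are replicates, lines group means). Scg5 over Pcsk2 ran from 0.27 to 1.12 within KO alone, whereas Pcsk1 over Pcsk2 stayed between 0.40 and 0.54 in all 9 libraries.

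Cpe (chromosome 8, 67071349 to 67171837, minus strand), the exopeptidase that acts after the convertases, was at 200, 238 and 231 FPKM in KO replicates 1 to 3. It was at 228, 213 and 199 FPKM in Het and at 221, 212 and 201 FPKM in WT. KO replicates 2 and 3, low for both convertases, had the most Cpe of the 9 libraries, and KO replicate 1 lay just below WT. The log2 difference was 0.07 in KO against WT (SE 0.08, 95% interval -0.10 to 0.25, limma adjusted p = 0.75) and 0.01 in Het against WT (SE 0.08, interval -0.17 to 0.19), from 8085 to 11795 implied fragments a library. Summed acinar markers were highest in KO replicate 2, at 24688 FPKM, and KO replicate 3 was at 19987. Het replicates 1 to 3 were at 19399, 21036 and 18775 FPKM, and WT at 17064 to 17454. The order of the 2 measures differed, as Het replicate 2 had the second highest acinar sum with Cpe inside the WT range, and Het replicate 3 was above all WT sums with the lowest Cpe of the 9 libraries. The part of acinar cells in the Cpe level was not tested.

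Pam (chromosome 1, 99717671 to 99992209, minus strand), which makes peptide amides, was at 42.8, 30.8 and 30.2 FPKM in KO replicates 1 to 3. It was at 38.6, 35.0 and 38.3 FPKM in Het and at 43.1, 43.1 and 41.1 FPKM in WT. WT libraries were close together and all 3 Het libraries lay below them, a separation that 7.05% of all tested genes showed in that direction. In KO 2 libraries lay below WT and replicate 1 within it. None of the 6 genes separated KO from WT completely (0 of 6, against 6.64% of genes with KO below and 4.55% with KO above). No gene of the 6 had all Het libraries above WT (3.54% of all genes), and none separated KO from Het (2.43% of genes with KO below and 3.48% with KO above). Pam averaged 34.6 ± 7.13 FPKM in KO and 42.4 ± 1.18 in WT, a log2 difference of -0.30 (SE 0.12, 95% interval -0.57 to -0.04), and had the smallest limma p of the 6 (unadjusted p = 0.027, limma adjusted p = 0.58). It ranked 547 of 13306 genes by p. Without the library labelled KO replicate 1 the difference was -0.46 (limma adjusted p = 0.081). Pcsk2, Pcsk1n and Scg5 then also had an unadjusted limma p below 0.05, but so did 2628 of all 13306 genes. Without KO replicate 2 or 3 it was -0.23 or -0.22, with unadjusted limma p of 0.098 and 0.11. In Het the difference from WT was -0.18 (SE 0.12, interval -0.44 to 0.08, limma adjusted p = 0.94).

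Mesenchyme markers, 9 of 9 tested and none at 0 throughout, had their lowest sums in the 3 libraries with least Pam, KO replicates 2 and 3 and Het replicate 2, though not every marker did: Col3a1, a fibrillar collagen gene and the most abundant of them, was at 415 FPKM in Het replicate 1 and 426 in Het replicate 2. The sum was 1614, 1125 and 1224 FPKM in KO replicates 1 to 3, 1474, 1257 and 1526 in Het and 1673, 1975 and 1399 in WT. The neuron and glia sums were lowest in the same 3 libraries, at 87.4 and 94.0 FPKM in KO replicates 2 and 3 and 79.4 in Het replicate 2. All 9 had a log2 difference below 0 in KO against WT, with a median of -0.36, and 0 of 9 passed. For Pdgfrb the difference was -0.002, with a mean of 23.1 FPKM in both groups. The difference was also below 0 for all 7 endothelial, all 7 immune and all 12 endocrine lineage markers. It was below 0 for 4 of 9 neuron and glia, 3 of 6 duct, 2 of 5 erythroid and 1 of 10 acinar markers. The part of mesenchyme or of any other cell type in the Pam level was not tested.

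**Figure D5:**
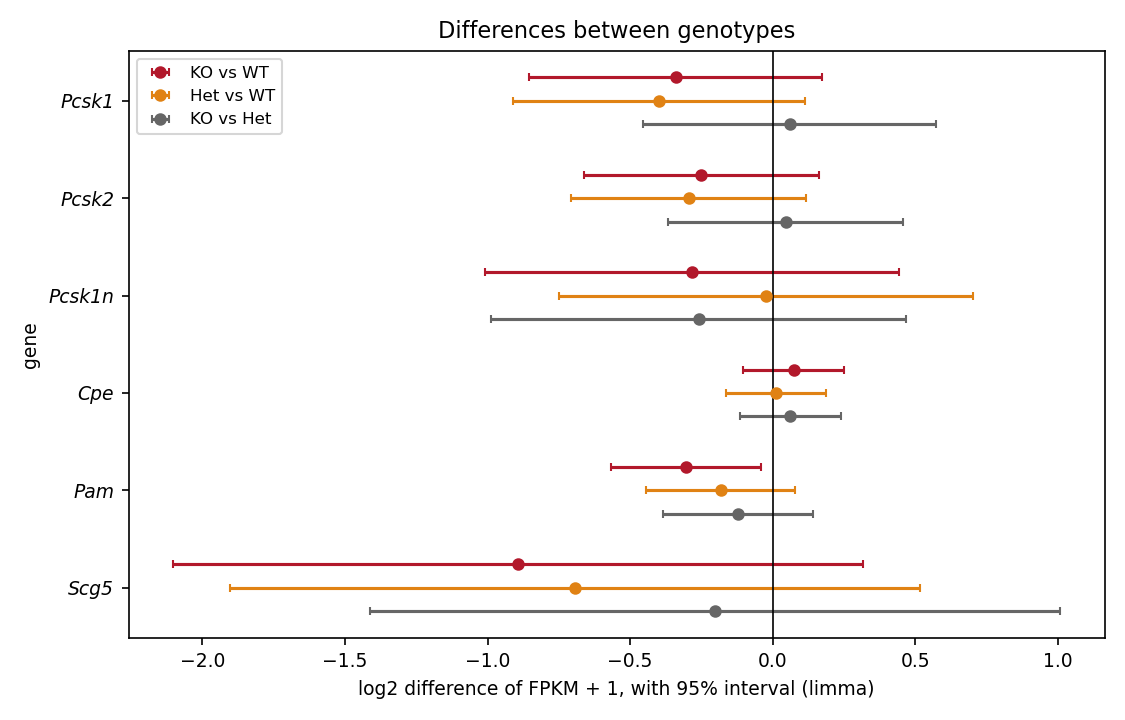
Differences of log2(FPKM + 1) between genotypes with 95% intervals from limma, each as first minus second group. All intervals for Cpe lay within 0.25 of 0, those of Scg5 reached -2.10, and the KO against WT interval of Pam alone did not include 0 before adjustment.

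Convertases outside the granule pathway showed the same lack of calls. Of the 7 other convertase genes all were tested, 0 passed in either direction, and all 7 had lower means in KO than in WT, with a median log2 difference of -0.11 against -0.03 over all genes. Furin averaged 25.8 ± 2.24 FPKM in KO and 27.9 ± 0.65 in WT (log2 difference -0.11, SE 0.06, limma adjusted p = 0.59). Mbtps1, which activates membrane-bound transcription factors, averaged 69.2 ± 1.66 FPKM in KO and 71.5 ± 2.11 in WT (-0.05, SE 0.05). Pcsk6, a convertase held at the cell surface, differed most in this list, at 4.33 ± 0.90 FPKM in KO and 5.82 ± 1.05 in WT (-0.36, SE 0.16, limma adjusted p = 0.58). In Het 6 of these 7 means were below WT, with a median of -0.09 and 0 calls.

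Other enzymes that trim, cyclise or degrade peptides were tested at 15 of 16 genes, with 0 calls. In KO 9 of 15 means were lower and 6 higher than in WT, with a median log2 difference of -0.06. Cpd, a carboxypeptidase related to Cpe, averaged 11.1 ± 0.62 FPKM in KO and 12.0 ± 0.48 in WT (-0.10, SE 0.08). Cpz, a secreted carboxypeptidase, averaged 5.17 ± 1.37 FPKM in KO and 7.11 ± 1.18 in WT (-0.41, SE 0.17, limma adjusted p = 0.58). Ide, the insulin-degrading enzyme, averaged 32.3 ± 2.18 FPKM in KO and 28.7 ± 1.76 in WT (0.16, SE 0.08, limma adjusted p = 0.58). Qpct, which forms pyroglutamate at peptide ends, averaged 3.27 ± 0.53 FPKM in KO and 3.56 ± 0.07 in WT (-0.10, SE 0.10).

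The substrates of these enzymes were counted next. Of 24 hormone and neuropeptide precursor genes 20 were tested, 0 passed, and 13 had lower and 7 higher means in KO than in WT, with a median log2 difference of -0.13. The summed precursors were at 5368, 3879 and 3559 FPKM in KO replicates 1 to 3, 3788, 5436 and 4638 in Het and 4490, 5991 and 6238 in WT, again lowest in KO replicates 2 and 3 and Het replicate 1. The single precursors did not all follow the sum. Sst, of somatostatin, was highest in these same libraries, at 151, 422 and 455 FPKM in KO, 375, 201 and 174 in Het and 152, 155 and 191 in WT (log2 difference 0.89 in KO against WT, SE 0.41, limma adjusted p = 0.58). Ppy, of pancreatic polypeptide, was also highest in KO replicates 2 and 3, at 21.0, 63.3 and 65.1 FPKM in KO, 43.1, 43.3 and 31.6 in Het and 40.3, 29.4 and 39.6 in WT (0.29, SE 0.37). Ins2, a proinsulin gene cut by both convertases, was at 2524, 1390 and 1191 FPKM in KO, 1463, 2514 and 2276 in Het and 2050, 3007 and 2918 in WT. Gcg, the proglucagon gene, was at 905, 822 and 712 FPKM in KO, 604, 891 and 704 in Het and 801, 899 and 1040 in WT. Ins1, the other proinsulin gene, was at 627, 235 and 233 FPKM in KO, 315, 606 and 481 in Het and 422, 722 and 683 in WT. Het replicate 1 was the lowest library for Gcg and KO replicate 3 the lowest for Ins2 and Ins1. Among precursors of amidated peptides, the products of Pam, 10 of 12 genes were tested and 0 passed, with 6 lower and 4 higher means in KO and a median of -0.07. Pyy, of peptide YY, averaged 414 ± 51.4 FPKM in KO and 432 ± 74.4 in WT (-0.06, SE 0.16). Iapp, of amylin, was at 425, 305 and 293 FPKM in KO, 259, 456 and 395 in Het and 383, 515 and 495 in WT (-0.45 in KO against WT, SE 0.22). Npy, a peptide of autonomic neurons and some islet cells, was at 101, 14.7 and 16.0 FPKM in KO, 131, 38.7 and 56.7 in Het and 31.2, 65.5 and 49.1 in WT. It was high in the libraries with high neuronal markers, KO replicate 1 and Het replicate 1.

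Granule genes outside the 6 were listed at 14 of 15 symbols, all tested, with 0 calls and 12 lower means in KO (median log2 difference -0.24). Chga, of chromogranin A, averaged 72.5 ± 27.5 FPKM in KO and 109 ± 17.2 in WT (-0.63, SE 0.27, limma adjusted p = 0.58). Chgb, of chromogranin B, averaged 39.6 ± 28.1 FPKM in KO and 63.2 ± 18.8 in WT (-0.84, SE 0.43, limma adjusted p = 0.58). Rab3d, a granule GTPase also of acinar cells, averaged 87.7 ± 8.52 FPKM in KO and 81.0 ± 5.32 in WT (0.11, SE 0.09).

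Profiles over the 9 libraries were compared by the root mean square difference of centred log2(FPKM + 1) values, where a smaller value means a closer likeness. Pcsk1 and Pcsk2 were the closest pair of the 6, at 0.12, and the other pairs lay between 0.22 for Pam with Pcsk2 and 0.84 for Cpe with Scg5. Outside the 6, the gene nearest to Pcsk1 was Ptprn2, a granule membrane protein, at 0.09, followed by Dbpht2 and 1700086L19Rik. Nearest to Pcsk2 were Syt13, of the synaptotagmin family, at 0.08, the kinase gene Pim2 and the amino acid transporter gene Slc16a10. Ptprn2 was at 30.4, 21.8 and 17.0 FPKM in KO, 16.0, 27.6 and 20.3 in Het and 23.8, 30.4 and 31.0 in WT, the same low libraries as the convertases.

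The partner genes had other neighbours. Nearest to Pcsk1n were Ptprn, a granule membrane protein, at 0.13, the granule protein gene Resp18 at 0.14 and Disp2 at 0.17. No gene came close to Scg5: its nearest were Fibin at 0.37, Nnat (neuronatin) at 0.40 and Chgb at 0.41, within a spread of 0.82 (SD) for Scg5 itself. Nnat was at 260, 104 and 103 FPKM in KO, 218, 175 and 173 in Het and 169, 262 and 220 in WT. Nearest to Pam were Slc23a2, a vitamin C transporter, at 0.04, Usp35 and Pygb, and nearest to Cpe were Arhgap12 at 0.04, Fam108b and the chloride transporter gene Clcn3. Small values are easy to reach for genes with little spread, as the SD of Cpe was 0.10 and that of Pam 0.20.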

How the data were processed

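The authors deposited 1 gene table per library, with FPKM values and lower and upper confidence bounds in FPKM for 23699 loci, per the file headers. TopHat 2.0.4 aligned the reads to mm9 per the labels, and CASAVA 1.8.2, Cufflinks and DESeq are named in the submitters' processing notes. Which annotation and strand setting were used is not stated. Loci of a symbol were summed, and 4 symbols flagged for excess data in any library were removed. Loci flagged as failed, 4 to 14 a library, were kept. Implied fragments take the upper bound as 2 standard errors above the FPKM. Of low values 73.5% to 74.44% came out whole within 0.05.

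Groups came from sample titles. limma 3.58.1 in R 4.3.3 was run on log2(FPKM + 1), trended, with all 9 libraries and genotype as the only term, on 13306 genes at 1 FPKM or more in at least 3 libraries. Tests were two-sided, Benjamini-Hochberg adjusted, threshold 0.05. Fold changes understate those of low genes. The fit was tested on simulated data. Positions are 1-based on mm9. Genes and lists were chosen with earlier results of these data known. All 6 genes are named. Named besides are the 3 most abundant tested genes of the precursor, amidated, granule and neuron lists, some of the enzymes, and the 3 nearest profiles. Sst and Ppy fall outside this rule and were picked with their values in view. Other marker lists are given as sums, with Col3a1 named, and Isl1 named with its values in view. Alternatives were other pseudocounts, filters, scalings, weights, covariates and left-out libraries.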

Additional observations from a re-analysis of the deposited data

How the results depend on the processing

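None of the 306 values of the 6 genes under 17 alternatives passed the threshold, and 23 changed sign, 0 of 102 in KO against WT, 10 in Het against WT and 13 in KO against Het. The smallest limma adjusted p was 0.063 in KO against WT (Pam with array weights), 0.76 in Het against WT and 0.35 in KO against Het. The cause of the sign changes was not tested. Pcsk1n in Het against WT was 0.0030 with equal medians and 0.035 with array weights, where Cpe was -0.011. In KO against Het, array weights gave Pcsk1 -0.12 and Pcsk2 -0.10, and sex as a covariate gave Pcsk2 -0.058. Without the libraries labelled KO replicate 1 and Het replicate 1, known from earlier results to stand apart at Nkx2-2, KO against Het gave Pcsk1 -0.30 and Pcsk2 -0.29, and Het against WT gave Cpe -0.037.

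Leaving out 1 library at a time gave these ranges in Het against WT: -0.27 to 0.14 for Pcsk1n and -0.037 to 0.060 for Cpe. In KO against Het they were -0.14 to 0.32 for Pcsk1, -0.13 to 0.19 for Pcsk2, -0.63 to 0.0067 for Pcsk1n and -0.93 to 0.28 for Scg5. The log2 difference of the Pcsk1n to Pcsk1 ratio, KO against WT, ranged from -0.20 to 0.19, below 0 without KO replicate 1 or WT replicate 1. The other ratio differences kept their sign in all alternatives run, though not their size: Scg5 to Pcsk2 ranged from -1.32 to -0.30 in KO and from -0.75 to -0.012 in Het, and Pcsk1n to Pcsk1 from 0.025 to 0.74 in Het. KO against WT ranged from -0.50 to -0.20 for Pcsk1, -0.43 to -0.15 for Pcsk2, -0.66 to -0.017 for Pcsk1n, -1.62 to -0.41 for Scg5 and -0.46 to -0.22 for Pam. With array weights 5 of the 6 genes, all but Cpe, had an unadjusted limma p below 0.05 in that comparison, but so did 3730 of all 13306 genes. The weight of KO replicate 3 was 5.73, against 0.45 and 0.54 for KO replicates 1 and 2.

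Counts of called genes over all 13306 moved from 0 to 5 with array weights in KO against WT, where 0 of the 6 genes was called. Without KO replicate 1 and Het replicate 1 they were 4 in KO against WT, 5 in Het against WT and 5 in KO against Het. Leaving out single libraries gave 0 to 1 genes in KO against WT, 0 to 7 in Het against WT (7 without KO replicate 1) and 0 to 4 in KO against Het. With the replicate number as a block limma called 1 gene in Het against WT and 0 in the other comparisons. Same-numbered libraries correlated in their deviations by -0.19 to 0.29 across genes, and a library matched its own number best in 8 of 18 comparisons with another group, so the numbers were not taken to pair samples. The counting error of each FPKM was small beside the full range of its gene over the 9 libraries, but not beside every gap between neighbouring libraries. Bounds overlapped for Pcsk1n in KO replicate 2 (5.51 to 6.89 FPKM) and WT replicate 1 (5.56 to 6.99). They also overlapped for Cpe in Het replicate 3 (195 to 203), KO replicate 1 (196 to 204) and WT replicate 3 (197 to 205). Further examples were KO replicate 1 and WT replicate 3, at Pcsk1n (12.1 to 14.1 and 10.8 to 12.8) and at Scg5 (30.6 to 35.1 and 26.8 to 31.2). At Scg5 KO replicate 2 (6.70 to 8.84) overlapped Het replicate 2 (7.93 to 10.3). At Cpe KO replicate 3 (226 to 236) overlapped Het replicate 1 (223 to 233). The order of such libraries is not resolved.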
